A study of Homo sapiens with 27 samples.

Results

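The 10 genes described here are *VEGFA*, *ADM*, *SLC2A1*, *CA9*, *PDK1*, *BNIP3*, *EGLN3*, *KDM3A*, *NDRG1* and *ANKRD37*, a set of hypoxia-responsive genes chosen by symbol among the 61533 genes of the count table. The rule uses symbols and no measured value. The cells were the *GNAQ* mutant uveal melanoma line 92.1, a single established line derived from a tumor of the eye. They were passaged for 21 days in DMSO or in 100 nM of VS-4718, an inhibitor of focal adhesion kinase (FAKi), and medium and treatment were renewed every 72 h. Poly(A) RNA was sequenced in 9 groups of 3 libraries. These were DMSO-treated cells at the start (day 0), then either treatment after 3, 7, 14 and 21 days. All groups carried the same *GNAQ* mutation and the labels name no low-oxygen treatment. Neither oxygen levels nor the density of the cultures is given in the sample labels, so a relation of these genes to density over days was not tested. The labels give a replicate number without saying whether it counts parallel wells or repeats of the whole experiment, so p-values measure the spread between these libraries.

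Cells read oxygen through prolyl hydroxylases, which mark the alpha subunits of the hypoxia-inducible factors (HIF) for destruction by the VHL ubiquitin ligase while oxygen is present. When oxygen falls, the alpha subunits (*HIF1A*, *EPAS1*) persist, pair with ARNT and bind a short DNA core near genes for glucose uptake, glycolysis, pH control, mitophagy and vessel growth. Many of these genes also answer to other inputs, and *VEGFA* is a known target of the integrated stress response factor ATF4 as well. HIF activity depends mainly on the amount of alpha protein, which RNA counts do not measure.

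The core bound by HIF is ACGTG or GCGTG. Both were searched on both strands in the 250 bases before the start of each RefSeq gene (GRCh38.p14), and 8 of the 10 genes had such a window in the table. A core was found for 6 of these 8 genes, in 7 of their 10 windows. Of all 35116 windows 43.2% held one, so a match is common in windows of this length. Windows of *CA9*, *ANKRD37* and *BNIP3* are shown because *CA9* was almost without reads, *ANKRD37* changed most over time in DMSO, and *BNIP3* held 6 matches, the most of the set. Capitals mark the core, the sequence runs 5′ to 3′ on the strand of the gene, and positions count back from the first base of the transcript. In *CA9* (chr9:35673678-35673927, plus strand) the core starts at -18. In *ANKRD37* (chr4:185396591-185396810, plus strand, the 220 bases that precede the counted transcript) matches start at -162 and -161, on opposite strands of a CACGTG that is also an E-box, and at -143, all counted from the RefSeq start, which lies 30 bases inside the counted transcript. In *BNIP3* (chr10:131981924-131982173, minus strand) matches start at -143, -134, -133, -125, -116 and -104, with a CACGTG again among them.
CA9: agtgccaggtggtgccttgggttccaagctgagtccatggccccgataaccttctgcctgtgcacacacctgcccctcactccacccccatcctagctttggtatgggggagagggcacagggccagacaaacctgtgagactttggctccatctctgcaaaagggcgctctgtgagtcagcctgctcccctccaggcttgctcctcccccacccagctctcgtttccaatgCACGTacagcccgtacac
ANKRD37: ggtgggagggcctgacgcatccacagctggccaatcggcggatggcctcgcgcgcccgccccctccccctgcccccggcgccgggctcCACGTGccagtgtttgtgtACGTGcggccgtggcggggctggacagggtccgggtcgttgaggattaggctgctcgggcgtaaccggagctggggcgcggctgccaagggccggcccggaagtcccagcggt
BNIP3: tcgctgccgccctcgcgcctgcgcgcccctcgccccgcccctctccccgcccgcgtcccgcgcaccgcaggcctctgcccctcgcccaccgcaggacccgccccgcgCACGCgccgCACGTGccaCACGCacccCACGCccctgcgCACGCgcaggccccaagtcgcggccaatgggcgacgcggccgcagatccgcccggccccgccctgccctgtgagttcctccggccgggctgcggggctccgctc
No core was found in these windows for *SLC2A1* or *EGLN3*. A match here is a description of letters and not of binding.

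Total counts were between 12161994 and 43651551 per library. Levels are in CPM, which divides each count by the total of its library and rescales to a common total, set across the 27 libraries, and levels of different genes are compared only per kilobase of counted exon. On that scale *VEGFA* was highest, at 32.1 ± 11.6 CPM per kb (SD, n = 27 libraries). *BNIP3* followed at 21.7 ± 4.22 and *NDRG1* at 13.6 ± 3.74 CPM per kb, and the spreads of *VEGFA* and *BNIP3* overlapped. *VEGFA* varied most between groups, and in FAKi at day 14 its mean was 9.76 CPM per kb, below *BNIP3* (19.0) and *NDRG1* (12.1). *ANKRD37* (4.76 ± 2.396), *SLC2A1* (4.05 ± 1.13) and *KDM3A* (3.48 ± 0.526) also did not differ beyond their spread. *PDK1* stood at 1.05 ± 0.341 and *EGLN3* at 0.558 ± 0.160 CPM per kb. *ADM* and *CA9* were at the limit of the counts, and 3 counts correspond to between 0.0680 and 0.243 CPM in these libraries. *CA9* had 4 counts in all, no more than 1 in any library, so it was below that limit in each of the 27 libraries and was tested nowhere. *ADM* had 75 counts in all, in 20 libraries, and reached the minimum of 20 counts only in the comparison at day 14 and in the fits across days. The line therefore had nearly no RNA of *CA9*, a gene often used as a readout of hypoxia, under any of these conditions, and 8 genes could be followed throughout.

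Of 7 melanocyte genes fixed as a check of the cell type, none was at 0 in any library, and their summed level ran from 9365 to 15292 CPM, against 6.82 to 19.3 CPM for 9 markers of epithelial, stromal, endothelial and immune cells. A few libraries stood apart, and several results of the 10 genes and of the HIF machinery that change without them are given both ways. FAKi day 7 replicate 1 lay 0.215 (root mean square difference of log2 CPM over 16981 genes) from FAKi day 14 replicate 1, closer than any replicates of a group (smallest 0.228), but 0.707 and 0.740 from its own replicates. DMSO day 3 replicate 1 had 18.1% of its counts on mitochondrial genes, against 9.59% and 8.61% in the other replicates. DMSO day 21 replicate 3 had 9.75%, against 5.49% in both others. The header of its counts writes the day with an additional 7 before the 21, whereas its sample title says day 21. The title was followed, and its day could not be checked further. The part of these differences in the results was not tested.

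**Figure D1:**
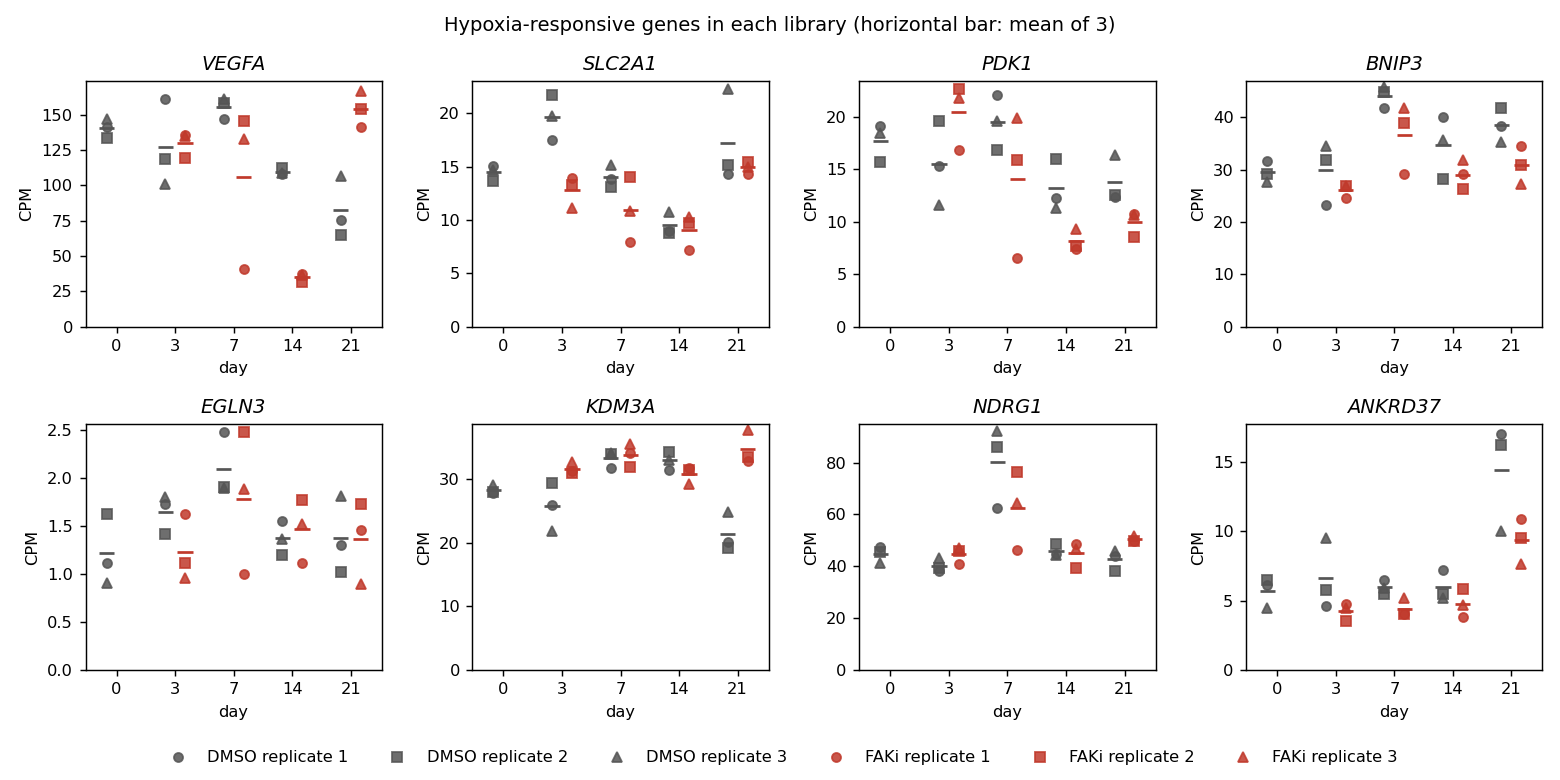
CPM of the 8 genes with enough counts in each library, on linear axes that start at 0, against day, with DMSO in grey, FAKi in red, 1 symbol shape per replicate number and a bar at the mean of 3. VEGFA in FAKi at day 14 lies between 31.6 and 37.3 CPM, below all DMSO libraries of that day, and ANKRD37 in DMSO at day 21 lies between 10.0 and 17.1 CPM, above all other DMSO libraries.

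FAKi and DMSO were compared on each day. To be called, a gene needed an adjusted p no higher than 0.05 (edgeR quasi-likelihood test, Benjamini-Hochberg over all genes tested) and a log2 fold change beyond 1 in either direction. At day 3 and at day 7 edgeR called 0 of the 8 genes tested, and DESeq2 also called 0. At an unadjusted p under 0.05, 1 gene was found on each of these days, *SLC2A1* at day 3 and *ANKRD37* at day 7. Over all genes the share called by edgeR was 0% at day 3 and 0.0269% at day 7, and it was the same on both days without a minimum fold change. DESeq2 called 3.26% and 0.466% of all genes on these days. At day 14, 1 of 9 genes was called (*VEGFA*, lower), where 1.66% of all genes were called. Without a minimum fold change 2 passed (*VEGFA* and *PDK1*, both lower), against 12.4% of all genes. At day 21, 0 of 8 genes were called by edgeR or by DESeq2, where edgeR called 5.28% and DESeq2 7.9% of all genes, and 4 had an unadjusted p under 0.05 by edgeR. Without a minimum fold change 2 passed (*VEGFA* and *KDM3A*, both higher), against 11.6% of all genes. Libraries of FAKi and DMSO did not overlap for 2, 3, 2 and 5 of the genes tested at days 3, 7, 14 and 21. The same held for 31.0%, 16.8%, 29.0% and 35.3% of all genes.

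**Figure D2:**
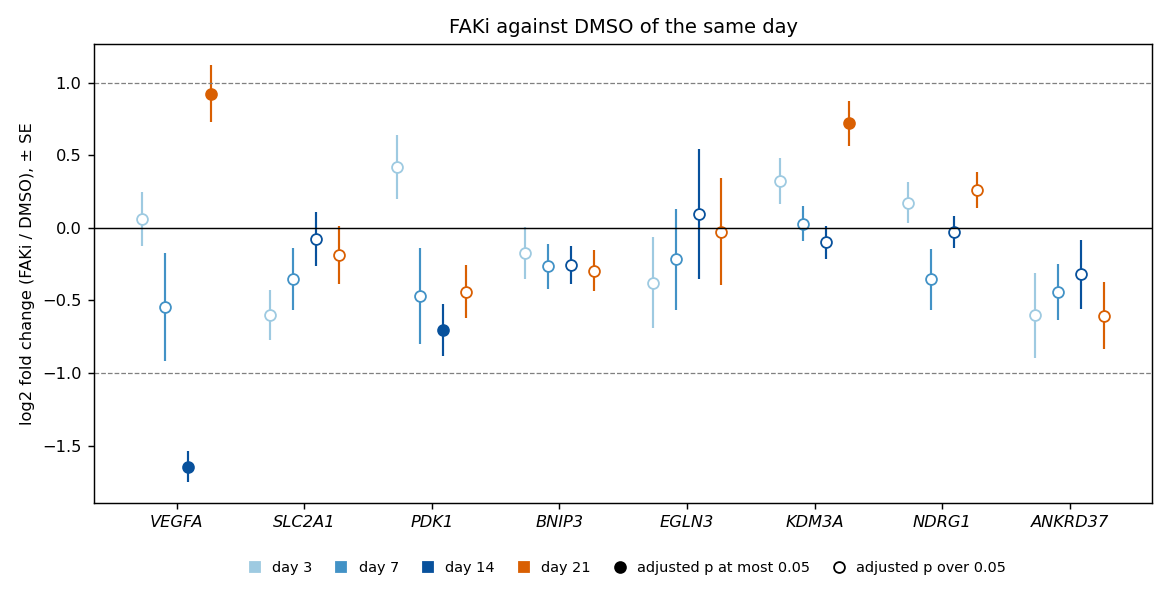
Log2 fold change of FAKi over DMSO with its standard error (edgeR, 3 against 3 libraries per day) for 8 genes, colored by day, with filled points where the adjusted p was 0.05 or less and dashed lines at a log2 fold change of 1 in either direction. VEGFA moves from -1.64 at day 14 to 0.93 at day 21, whereas BNIP3 and EGLN3 have open points on every day.

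The secreted factors are *VEGFA*, which drives growth of blood vessels, and *ADM*, the gene of the vasodilator peptide adrenomedullin. *VEGFA* (chr6:43770211-43786487, plus strand, hg38) was at 108, 112 and 109 CPM in DMSO at day 14 and at 37.3, 31.6 and 36.3 CPM in FAKi. The groups did not overlap and each was tight. The log2 fold change was -1.64 (SE 0.10, edgeR adjusted p = 9.40e-10), and it stayed between -1.69 and -1.58 when any 1 library was left out. At day 21 the order was turned. *VEGFA* was then at 75.8, 64.7 and 106 CPM in DMSO and at 141, 154 and 167 CPM in FAKi, a log2 fold change of 0.93 (SE 0.20, edgeR adjusted p = 0.0257). The 3 FAKi libraries lay above all 3 DMSO libraries, and the highest DMSO value was that of replicate 3. Without DMSO day 21 replicate 3 the log2 fold change was 1.17 (SE 0.11, edgeR adjusted p = 8.60e-08). Without any other single library of that day it was 0.78 to 0.99, and the edgeR adjusted p was then between 0.0745 and 0.122, so the result at day 21 depends on having all 6 libraries or on leaving out that 1. At day 3 *VEGFA* was at 161, 119 and 101 CPM in DMSO and at 136, 119 and 135 CPM in FAKi, with overlap. At day 7 it was at 147, 158 and 161 CPM in DMSO and at 40.7, 145 and 132 CPM in FAKi. The low FAKi value was replicate 1, the library nearest to FAKi at day 14, and without it the log2 fold change went from -0.55 (SE 0.37) to -0.15 (SE 0.11, edgeR adjusted p = 0.540). *ADM* stayed at or under 12 counts in every library.

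The change of the FAKi effect with day was tested directly, as an interaction over the 24 libraries of days 3 to 21. *VEGFA* (edgeR adjusted p = 0.00121) and *KDM3A* (edgeR adjusted p = 0.0214) passed, 2 of 9 genes tested, against 10.3% of all genes. *VEGFA* passed whichever single library was left out. It also passed without FAKi day 7 replicate 1, where *PDK1* passed in addition (edgeR adjusted p = 0.0307). *KDM3A* failed without DMSO day 21 replicate 1, DMSO day 21 replicate 2 or FAKi day 21 replicate 3, with edgeR adjusted p-values of 0.0631 to 0.0717. With day 14 left out neither gene passed.

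*SLC2A1* and *CA9* act at the cell surface, the first as the glucose transporter GLUT1 and the second as carbonic anhydrase IX, which handles the acid of glycolysis. *SLC2A1* (chr1:42925353-42958868, minus strand) was at 17.5, 21.8 and 19.8 CPM in DMSO at day 3 and at 14.0, 13.3 and 11.1 CPM in FAKi. FAKi was lower without overlap, with a log2 fold change of -0.60 (SE 0.17, unadjusted p = 0.00600 and adjusted p = 0.104 by edgeR). The adjusted p was 0.0457 with DESeq2, 0.0410 with all 27 libraries in a single edgeR fit, 0.0377 with no count filter and 0.00810 without DMSO day 3 replicate 1. Of all genes, 8.06%, 9.14%, 8.95% and 32.7% passed in these fits without a minimum fold change. At days 14 and 21 the groups overlapped, at -0.08 (SE 0.19) and -0.19 (SE 0.20). In both treatments *SLC2A1* had its lowest mean at day 14, at 9.53 ± 1.1 CPM (SD, n = 3) in DMSO and 9.07 ± 1.7 CPM in FAKi.

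*PDK1* and *BNIP3* act on mitochondria. The kinase PDK1 holds pyruvate back from oxidation, and BNIP3 marks mitochondria for removal. *PDK1* (chr2:172556090-172608669, plus strand) was at 12.3, 16.0 and 11.3 CPM in DMSO at day 14 and at 7.45, 7.71 and 9.27 CPM in FAKi, without overlap. The log2 fold change was -0.70 (SE 0.18, edgeR adjusted p = 0.0121). The result was lost in 3 of 6 fits that left out 1 library, with edgeR adjusted p-values of 0.0714 to 0.0779 (without replicate 2 of DMSO, or replicate 1 or 2 of FAKi). At day 21 it was again lower in all FAKi libraries, 10.7, 8.55 and 10.7 CPM against 12.3, 12.6 and 16.4 CPM, at a log2 fold change of -0.44 (SE 0.19) that missed the threshold (edgeR adjusted p = 0.142). *BNIP3* (chr10:131967684-131981923, minus strand) stood at -0.17, -0.26, -0.26 and -0.29 (log2 fold change, FAKi over DMSO) from day 3 to day 21, with SE of 0.13 to 0.18 and edgeR adjusted p-values of 0.177 or more. Reads of *BNIP3* can be shared with processed copies, of which *BNIP3P1* had 5534 counts against 22198 for *BNIP3*, so its values carry that uncertainty.

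*EGLN3* and *KDM3A* encode oxygen-dependent enzymes. EGLN3 is a prolyl hydroxylase that acts back on HIF, and KDM3A removes methyl groups from lysine 9 of histone H3. *KDM3A* (chr2:86441379-86492714, plus strand) varied little in most groups. At day 21 it was at 20.1, 19.2 and 24.8 CPM in DMSO and at 32.9, 33.4 and 37.7 CPM in FAKi. All FAKi libraries were higher, with a log2 fold change of 0.72 (SE 0.15, edgeR adjusted p = 0.0265). As for *VEGFA*, it passed with all libraries or without DMSO day 21 replicate 3, and the edgeR adjusted p was 0.0781 to 0.130 without any other single library. At day 3 FAKi was also higher without overlap (31.3, 30.9 and 32.7 against 25.9, 29.4 and 21.8 CPM), at 0.32 (SE 0.16, edgeR adjusted p = 0.245). *EGLN3* (chr14:33924227-33951074, minus strand) lay between 0.891 and 2.48 CPM in all libraries, and the FAKi and DMSO libraries overlapped on every day.

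*NDRG1*, a cytoplasmic protein induced in stress and differentiation, and *ANKRD37*, a small ankyrin repeat protein, complete the set. *NDRG1* (chr8:133237176-133297586, minus strand) was at 49.9, 49.8 and 51.6 CPM in FAKi at day 21 and at 44.01, 38.2 and 45.9 CPM in DMSO, higher without overlap but at only 0.26 (SE 0.13, edgeR adjusted p = 0.186). *ANKRD37* (chr4:185396811-185400628, plus strand) had negative fold changes on all 4 days, -0.60 (SE 0.29), -0.44 (SE 0.19), -0.32 (SE 0.24) and -0.61 (SE 0.23). None passed with all libraries fitted and no block. Without DMSO day 3 replicate 1 it passed at day 3 (edgeR adjusted p = 0.0215), where 32.7% of all genes passed. At day 21 the fit with the replicate block gave -0.58 with an edgeR adjusted p of 0.0146, where 29.9% of all genes passed without a minimum fold change. The labels do not say whether replicate numbers pair the libraries. Without DMSO day 21 replicate 3 and without blocks, *ANKRD37* (-0.81, SE 0.16), *BNIP3* (-0.34, SE 0.12) and *NDRG1* (0.33, SE 0.11) passed at day 21 as well, in a fit where 48.5% of all genes passed without a minimum fold change.

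The same genes were then followed in DMSO alone, each day against day 0. These comparisons share the day 0 libraries with each other and the DMSO libraries of each day with the FAKi comparison of that day. At day 3, 0 of 8 genes were called by edgeR and 0 passed without a minimum fold change, and both shares were 0% over all genes. An unadjusted p under 0.05 was found for 1 gene (*SLC2A1*, 0.41, SE 0.16), and DESeq2 called 0 (0.106% of all genes). Without DMSO day 3 replicate 1 *SLC2A1* passed (edgeR adjusted p = 0.0423), where 18.6% of all genes passed. At day 7 edgeR and DESeq2 called 0 (0.699% of all genes by edgeR), 4 had an unadjusted p under 0.05, and 2 passed without a minimum fold change (4.94% of all genes). At day 14 edgeR and DESeq2 called 0 (6.07% of all genes by edgeR), 4 had an unadjusted p under 0.05, and 3 passed without a minimum fold change (28.3% of all genes). At day 21, 1 was called (23.3% of all genes) and 4 passed without a minimum fold change (44.9% of all genes). In tests across all days, 6 of 9 genes varied in DMSO, against 49.9% of all genes, and 5 of 9 in FAKi, against 45.1%. With 9 genes, neither count stood far from the share among all genes.

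Over time in DMSO the genes went different ways. *NDRG1* was at 47.4, 45.4 and 41.3 CPM at day 0 and at 62.3, 86.2 and 92.2 CPM at day 7, a rise of 0.82 on the log2 scale (SE 0.10, edgeR adjusted p = 5.61e-07), and it was back at 44.7, 48.7 and 44.2 CPM at day 14. *BNIP3* was at 31.7, 29.1 and 27.7 CPM at day 0 and rose at day 7 to 41.8, 44.8 and 45.8 CPM, by 0.56 (SE 0.08, edgeR adjusted p = 1.96e-05). Both groups were clear of day 0. In the single fit of all 27 libraries *BNIP3* lost this result (edgeR adjusted p = 0.237). *EGLN3* was also above all day 0 libraries at day 7, at 0.81 (SE 0.27), but missed the threshold (edgeR adjusted p = 0.0788).

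At day 14 *SLC2A1* fell by 0.61 on the log2 scale (SE 0.14, edgeR adjusted p = 0.00492), from 15.03, 13.6 and 14.7 CPM to 8.99, 8.82 and 10.8 CPM. *VEGFA* fell by 0.36 (SE 0.09, edgeR adjusted p = 0.00523), from 141, 133 and 147 CPM. Every library of day 14 was below every library of day 0 for both genes. *PDK1* fell by 0.44 (SE 0.15, edgeR adjusted p = 0.0425) with overlapping libraries, and missed the threshold in 5 of 6 fits without 1 library and with DESeq2 (adjusted p = 0.0554). In the single fit of all 27 libraries *VEGFA* missed it too (edgeR adjusted p = 0.356).

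At day 21 *ANKRD37* was at 17.1, 16.2 and 10.0 CPM, against 6.16, 6.49 and 4.49 CPM at day 0. It rose by 1.34 on the log2 scale (SE 0.25, edgeR adjusted p = 0.00491), and it was called in each fit that left out 1 library. The lowest of the 3 was replicate 3. *VEGFA* fell by 0.78 (SE 0.18, edgeR adjusted p = 0.0109), and by 1.01 (SE 0.08) without that replicate. *KDM3A* fell by 0.41 (SE 0.14, edgeR adjusted p = 0.0446) and *BNIP3* rose by 0.37 (SE 0.13, edgeR adjusted p = 0.0450). The last 2 results passed narrowly, and both were lost when any library other than DMSO day 21 replicate 3 was left out. Without that replicate *PDK1*, which was lower, also passed (edgeR adjusted p = 0.000113), where 69.7% of all genes passed. The opposite signs of *VEGFA*, *KDM3A* and *ANKRD37* in FAKi against DMSO at day 21 use the same DMSO libraries.

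**Figure D3:**
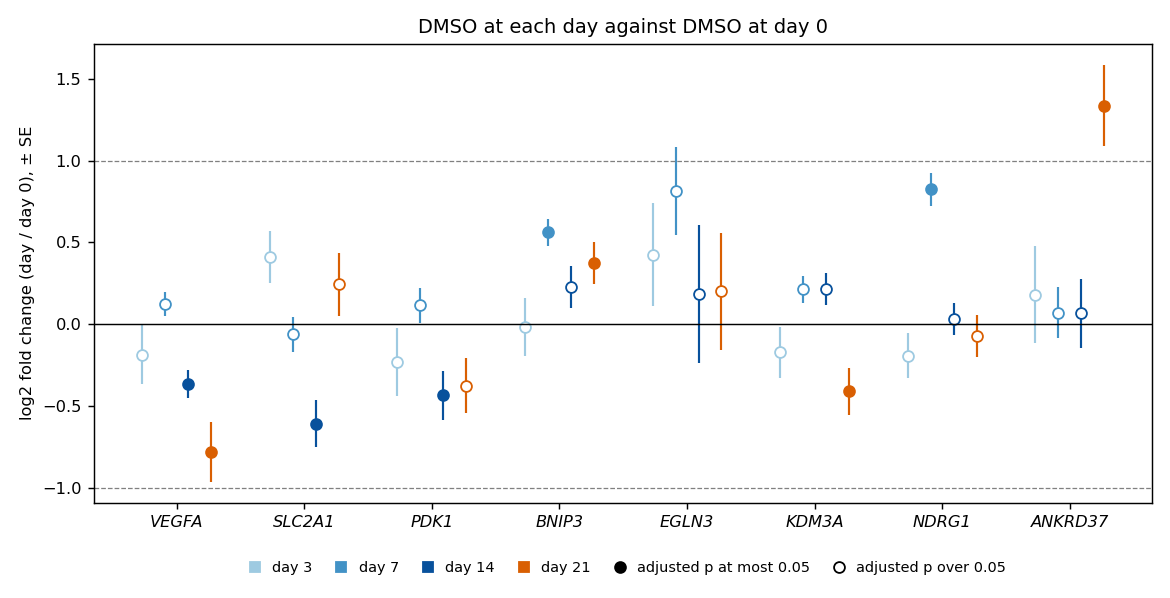
Log2 fold change of DMSO at days 3, 7, 14 and 21 over DMSO at day 0 with its standard error (edgeR, 3 against 3 libraries) for 8 genes, with filled points where the adjusted p was 0.05 or less and dashed lines at a log2 fold change of 1 in either direction. NDRG1 and BNIP3 have filled points above 0 at day 7, and at day 21 VEGFA stands at -0.78 and ANKRD37 at 1.34.

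Part of *ANKRD37* cannot be counted apart from its neighbor. In GENCODE 44, 62.95% of its exon bases also lie in exons of *UFSP2* on the opposite strand, and the counting names no strand option. *UFSP2* had 2.75 times the counts per kb of *ANKRD37*. It rose by 0.49 (SE 0.14, edgeR adjusted p = 0.0214) in DMSO at day 21, less than *ANKRD37*, and its FAKi effect at day 21 was -0.30 (SE 0.14, edgeR adjusted p = 0.165). For *VEGFA* the shared part was 5.21% of exon bases, with the opposite-strand gene ENSG00000272114, for *SLC2A1* 14.7% and for *PDK1* 1.83%. The opposite-strand gene of *VEGFA*, which lies wholly within its exons, had 1.12 times its counts per kb, whereas that of *SLC2A1*, with 35.8% of its bases shared, had 0.018 times. These pairs thus differed in that ratio. Like *VEGFA*, ENSG00000272114 was lower in FAKi at day 14 (-2.34, SE 0.25, edgeR adjusted p = 1.82e-06) and in DMSO at day 21 against day 0 (-2.49, SE 0.48, edgeR adjusted p = 0.00556). It did not pass in FAKi at day 21 (0.85, SE 0.54, edgeR adjusted p = 0.302) or in DMSO at day 14 (-0.23, SE 0.18, edgeR adjusted p = 0.377). Its part in the *VEGFA* counts was not tested. With all annotated transcripts of *ARHGEF39* taken, 36.9% of *CA9* exon bases lie in its exons on the opposite strand, but the counted transcripts of the pair share 0 bases. For *NDRG1*, 20.03% was shared with ENSG00000289316 on the same strand, which rose in step at day 7 (0.82, SE 0.13) but also at day 21 (1.39, SE 0.27), when *NDRG1* was at -0.07 (SE 0.13). No exon of *BNIP3*, *EGLN3*, *KDM3A* or *ADM* overlapped another gene.

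Among themselves the 8 genes had no common course. Over the 9 group means of log2 CPM, the 28 pairs had a median Pearson r of 0.149, from -0.622 (*ANKRD37* with *KDM3A*) to 0.769 (*EGLN3* with *NDRG1*), and 20 were positive. *BNIP3*, *EGLN3* and *NDRG1* stood closest together, with r of 0.705 to 0.769, and had their highest means in DMSO at day 7. *PDK1* and *VEGFA* (r = 0.680) both had their lowest means in FAKi at day 14. These correlations describe 9 groups that share days and scaling. The highest means of the 8 genes fell in 5 different groups and the lowest also in 5. Of the other genes, those most like the mean standardized course of the 8 over the 9 groups were *EIF2A* (r = 0.934), *C14orf93* (r = 0.923), *BCKDHA* (r = 0.921), ENSG00000255730 (r = 0.921) and *MUC5B* (r = 0.918), out of 16981 genes.

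The HIF machinery gave few differences between treatments. *HIF1A*, *EPAS1*, *ARNT*, *VHL*, *EGLN1*, *EGLN2* and *HIF1AN*, which encode the alpha subunits, their partner, the ligase subunit and the oxygen-sensing hydroxylases, did not pass the test in FAKi against DMSO on any day when all libraries were fitted. Without DMSO day 21 replicate 3, *HIF1A* (1.21, SE 0.15), *ARNT* (0.77, SE 0.14), *VHL* (-0.38, SE 0.12) and *EGLN2* (-0.43, SE 0.10) passed at day 21, where 48.5% of all genes passed. Without DMSO day 3 replicate 1, *HIF1A* passed at day 3 (1.14, SE 0.21). It was 1 of 3 machinery genes called there, all higher, where 12.7% of all genes were called. Without FAKi day 7 replicate 1, *EPAS1* passed at day 7 (-0.62, SE 0.15), where 2.96% of all genes passed. *EGLN2* passed at day 14 without replicate 3 of DMSO or of FAKi (0.46 in both fits), where 10.6% and 10% of all genes passed. With all libraries fitted, 1 of the 11 tested genes of the machinery was called in these comparisons. This was the transcription co-regulator *CITED2* at day 21 (-1.42, SE 0.21, edgeR adjusted p = 0.00790), where 5.28% of all genes were called. *CITED2* was named here after its value was seen. At day 21 it was -1.22 (SE 0.15) without DMSO day 21 replicate 3, and it missed the threshold without FAKi day 21 replicate 2 or 3 (edgeR adjusted p = 0.0698 and 0.0615). At day 14 *CITED2* was also lower in FAKi and passed without a minimum fold change, as did 12.4% of all genes. There it passed in 6 of 6 fits that left out 1 library, at -0.77 to -0.61. In DMSO at day 3 against day 0, 0 of the 11 passed with all libraries. Without DMSO day 3 replicate 1, 4 passed, all lower, where 18.6% of all genes passed. In DMSO at day 21 against day 0, *HIF1A* fell by 1.75 (SE 0.37, edgeR adjusted p = 0.00745) and *ARNT* by 0.97 (SE 0.20). *HIF1A* was at 121, 116 and 118 CPM at day 0 and at 21.4, 23.4 and 61.5 CPM at day 21, so replicate 3 fell least, and without it the log2 fold change was -2.42 (SE 0.09). The mitochondrial share was 16.98 to 18.81% at day 0 and 5.49, 5.49 and 9.75% at day 21, and its part in these changes was not tested. *EPAS1* fell by 0.65 (SE 0.23) and *HIF1AN* by 0.44 (SE 0.12), *EGLN2* rose by 0.98 (SE 0.19), and *EGLN1* (0.07, SE 0.14) and *VHL* (0.18, SE 0.13) did not pass. *EPAS1* and *HIF1AN* passed with all libraries or without DMSO day 21 replicate 3, and in no other fit that left out 1 library. In all 8 of 11 passed without a minimum fold change, 1 higher and 7 lower, against 44.9% of all genes, with a median log2 fold change of -0.65 against 0.03 over all genes. The count was 9 without DMSO day 21 replicate 3 (69.7% of all genes) and 6 without any other single library. The median log2 CPM of the list was 5.26 to 5.35 at day 0 and 4.46, 4.55 and 5.34 at day 21, the last in replicate 3.

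A list of 38 other HIF target genes was read in the same way. In FAKi at day 14, 3 of 33 tested were called, where 1.66% of all genes were called. All were lower, namely *NDUFA4L2* (-4.45, SE 0.41), a mitochondrial respiratory chain homolog, *DDIT4* (-2.25, SE 0.14), an inhibitor of mTORC1, and *STC2* (-2.23, SE 0.14), a secreted glycoprotein. The median of the list was -0.01, as was the median of all genes (-0.01). Of the list, 5 passed higher and 4 lower without a minimum fold change, against 12.4% of all genes in either direction. At days 3, 7 and 21, 0 of the list were called by edgeR, with 5, 1 and 11 at an unadjusted p under 0.05. In DMSO *VLDLR* (-1.27, SE 0.10) and *LOX* (-1.18, SE 0.31) were called at day 14 (6.07% of all genes) and *FUT11* (-1.25, SE 0.34) at day 21 (23.3% of all genes). *LOX* missed the threshold without DMSO day 0 replicate 1 (edgeR adjusted p = 0.0595). *FUT11* was called again only without DMSO day 21 replicate 3, where 6 of the list and 36.9% of all genes were called. At days 3 and 7 edgeR called 0 of the list, with 4 and 14 at an unadjusted p under 0.05. The median of the list in DMSO at day 21 was -0.13.

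Genes of the integrated stress response, the ATF4 program for lack of amino acids or protein folding, were read beside these, and no test compared the lists. Of 12 such genes 11 were called lower in FAKi at day 14, where 1.66% of all genes were called, with a median log2 fold change of -1.78, among them the asparagine synthetase *ASNS* (-3.78, SE 0.12), the cystine transporter *SLC7A11* (-3.54, SE 0.16) and *ATF4* itself (-1.74, SE 0.09). With 1 library of day 14 left out, 9 to 11 were called, all lower (1.2% to 1.96% of all genes), with medians of -1.94 to -1.62. *STC2* and *VLDLR* stand in this list and in the HIF target list. At day 21, 2 of the 12 were called lower (5.28% of all genes), with a median of -0.33. The lowest values of *VEGFA* and of this list fell in the same 4 libraries. The median log2 CPM of the list was 3.39 to 3.48 in FAKi at day 14, 3.51 in FAKi day 7 replicate 1 and 6.49 and 6.67 in its other replicates. The same 4 libraries held the lowest *VEGFA* values, 31.6 to 40.7 CPM. In DMSO the list was at 5.41 to 5.64 at day 14 and 6.82 to 6.88 at day 21, against 6.66 to 6.70 at day 0, while *VEGFA* was lower at both days than at day 0. In FAKi at day 21 the list was at 6.03 to 6.12, lower than in DMSO of that day, while *VEGFA* was higher than in DMSO. Of 12 proliferation genes, 10 passed higher in FAKi at day 14 and 8 lower at day 21 without a minimum fold change, against 12.4% and 11.6% of all genes, with medians of 0.55 and -0.71. The count at day 21 was 0 without FAKi day 21 replicate 2 (0.229% of all genes), 1 without replicate 3 (0.693%) and 10 without DMSO day 21 replicate 3 (48.5%). It was 4 without any other single library (2% to 2.19%). The median log2 CPM of the proliferation list was 6.56 to 6.62 in FAKi at day 14 and in FAKi day 7 replicate 1. It was 5.53 and 5.56 in the other FAKi day 7 replicates. Over 16981 genes FAKi day 7 replicate 1 was also nearer to each FAKi day 14 library (0.215 to 0.433) than to its own replicates (0.707 and 0.740). These libraries thus stood together beyond the stress list. The part of the stress list and of the proliferation list in the *VEGFA* result was not tested. Of 9 tested YAP targets, 2 were called at day 14 (1 higher, 1 lower; 1.66% of all genes) and 2 at day 21, both lower (5.28% of all genes). In bulk RNA, fewer cells of a kind and less RNA per cell cannot be told apart.

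**Figure D4:**
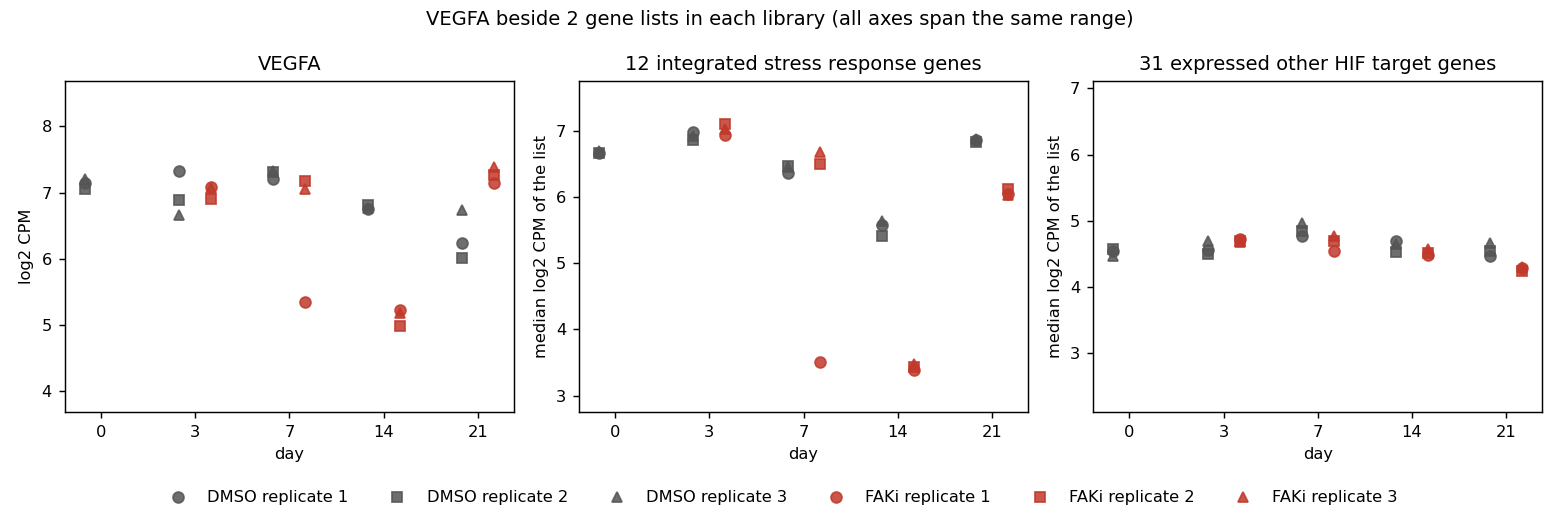
Log2 CPM of VEGFA and the median log2 CPM of 12 integrated stress response genes and of the 31 other HIF target genes with a mean of at least 1 CPM, in each library against day, with DMSO in grey, FAKi in red and 1 symbol shape per replicate number, on axes of equal span. In FAKi at day 14 and in FAKi day 7 replicate 1 VEGFA and the stress list are low, the list at 3.39 to 3.51. The median of the HIF target list lies between 4.25 and 4.97 in all libraries. NDUFA4L2, DDIT4 and STC2 of that list were called lower in FAKi at day 14. STC2 and VLDLR are in both lists. The part of either list in the VEGFA level was not tested.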

How the data were processed

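Poly(A) RNA libraries (TruSeq Stranded mRNA) of 92.1 cells were analyzed in 27 samples, 9 groups of 3, grouped by the treatment and day of the sample labels. The submitters' processing notes name Trim Galore, FastQC 0.11.8, STAR 2.5.3a, HOMER and DESeq2. The authors used HOMER, and the deposited counts are raw exon counts on hg38 (GENCODE 39), condensed to 1 transcript per gene, with no normalization. The header names no strand option. Among 51 genes that lie at least 95% inside exons of an abundant gene of the opposite strand, the median ratio of counts per kb to that gene was 0.619, so opposite strands are not cleanly separated, although 15.7% of these genes had a ratio under 0.05. The 10 genes and all gene lists were chosen with earlier results of these data known.

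Genes with fewer than 20 counts over the fitted libraries were removed, and edgeR 4.0.16 (R 4.3.3) was run with TMM scaling and the quasi-likelihood F test on the libraries of each comparison. DESeq2 1.42.0, which the study's methods name, was an alternative, with RLE and upper quartile scaling, other count filters, thinned counts, no mitochondrial genes, a single fit of 27 libraries, a replicate block and each library left out. Each day left out in turn, and each library left out for the other gene lists, were added after seeing the data. The steps were tested on simulated data. Named were all 10 genes, the 7 core genes of the HIF machinery, up to 5 called HIF targets per comparison with the largest change, and the 5 genes most like the set over the groups. *CITED2*, *ASNS*, *SLC7A11* and *ATF4* were named outside this rule, after their values were seen. Same-numbered libraries deviated together most in FAKi and DMSO at day 21 (r = 0.443, 0.128 and 0.658 over genes), so the block value is given there. The r of replicate 2 was no higher than some in other comparisons (0.161 and 0.194 in DMSO at days 7 and 21), so pairing is not established. CPM on the log2 scale used a prior count of 2, and precision is limited by 3 libraries per group and by counting error.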

Additional observations from a re-analysis of the deposited data

Results flagged for a closer look

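The FAKi effect on *VEGFA* differed between days 3, 7, 14 and 21 (edgeR interaction test, adjusted p = 0.00121), with log2 fold changes of 0.06, -0.55, -1.64 and 0.93 and standard errors of 0.19, 0.37, 0.10 and 0.20. All 3 FAKi libraries were below all DMSO libraries at day 14 and above them at day 21. The FAKi effect on *KDM3A* also differed between these days (edgeR interaction test, adjusted p = 0.0214), with log2 fold changes of 0.32, 0.03, -0.10 and 0.72 and standard errors of 0.16, 0.12, 0.11 and 0.15. These groups of 3 libraries were not searched for single outlying values.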

How the results depend on the processing

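The count of the 10 genes called was 2 at day 14 and 2 at day 21 in FAKi against DMSO (12.4% and 11.6% of all genes), when no minimum fold change was set. It was 2, 3 and 4 at days 7, 14 and 21 in DMSO against day 0 (4.94%, 28.3% and 44.9% of all genes). With 1 library left out, this count ran from 0 to 5 in FAKi against DMSO at day 21 and from 2 to 5 in DMSO at day 21 against day 0. The higher value in both came without DMSO day 21 replicate 3, where 48.5% and 69.7% of all genes passed. With a log2 fold change beyond 1 also required, it ran from 0 to 1 in FAKi against DMSO at day 21 and from 1 to 2 in DMSO at day 21 against day 0. The higher value in both came without DMSO day 21 replicate 3, where *VEGFA* was called (18.7% and 36.9% of all genes). With 1 library left out, the count ran from 3 to 6 for the FAKi time course (34.7% to 58% of all genes). It ran from 5 to 7 for the DMSO time course (37.4% to 56.8%) and 1 to 3 for the treatment by day interaction (5.69% to 21.8%). At an adjusted p of at most 0.01 it was 3 for the FAKi time course and 1 for the interaction. Of the genes that passed in the DMSO time course, only *BNIP3* missed this stricter threshold (edgeR adjusted p = 0.0204). The share of all genes at 0.01 was not computed, so these counts cannot be set against it. With whole days left out, a choice made after seeing the data, it was 3 for the DMSO course without day 21 (27.1% of all genes). It was 3, 2 and 1 for the FAKi course without days 3, 14 and 21 (35.7%, 37.4% and 2.84%), and 0 and 1 for the interaction without days 14 and 21 (1.74% and 2.78%). Of 65 pairwise results of single genes, 16 changed sign in at least 1 alternative. None of the 16 passed the test in any fit, and their log2 fold changes with all libraries were at most 0.22 in size. *PDK1* in FAKi at day 14 missed the threshold in the single fit of all 27 libraries (edgeR adjusted p = 0.101) and with thinned counts. *BNIP3* in DMSO at day 21 missed it with upper quartile scaling (edgeR adjusted p = 0.0574), with DESeq2 (adjusted p = 0.0560) and with the replicate block (edgeR adjusted p = 0.0699). It also missed it with RLE scaling, thinned counts, no mitochondrial genes, no count filter and the single fit of all 27 libraries. Of the alternatives that kept all libraries, it passed only with another count filter (filterByExpr). *KDM3A* there missed it with the replicate block (edgeR adjusted p = 0.0573) and with no count filter (edgeR adjusted p = 0.114). *KDM3A* in the interaction missed it with no count filter (edgeR adjusted p = 0.0789), where *PDK1* passed (edgeR adjusted p = 0.0131). Outside FAKi against DMSO at day 21, same-numbered libraries deviated together little (r of at most 0.194). The replicate block gave 6 genes in the DMSO time course, 5 in the FAKi time course and 2 in the interaction (43.4%, 45.7% and 8.12% of all genes). The block kept the count called with the minimum fold change in every pairwise comparison. Without that minimum it moved the count from 2 to 3 in FAKi against DMSO at day 21 (*ANKRD37* added, 29.9% of all genes). In DMSO at day 21 the count went from 4 to 2 (*BNIP3* and *KDM3A* lost, 42.9% of all genes). The count of all genes called by edgeR at day 21 went from 1226 to 2076 with the block, and without DMSO day 21 replicate 3 to 4248. Counts limit *CA9* and *ADM*, and the causes of these differences were not tested.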
